A study of Rattus norvegicus with 3 samples.

Results

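The genes described here are 9 retinoid carriers, enzymes and a transporter, out of 16629 genes and unnamed regions in the table of the series: Rbp2, Rbp3, Rbp4, Rlbp1, Crabp1, Crabp2, Aldh1a1, Aldh1a2 and Abca4. They were taken by gene symbol, and all 9 were found, each as 1 RefSeq entry. The data were 3 poly(A) RNA libraries from adult Sprague-Dawley rats kept in cycles of 14 h light and 10 h dark. Pineal glands were collected at zeitgeber time 7 (ZT, hours after lights on, here midday) for the first library and at ZT 19 (midnight) for the next. The remaining library pooled equal amounts of RNA from 15 tissues other than the pineal, taken at ZT 7: cerebellum, cortex, midbrain, hindbrain, hypothalamus, spinal cord, retina, pituitary, adrenal gland, heart, skeletal muscle, lung, liver, kidney and small intestine. No animal carried a drug or a genetic change according to the labels, and the sources used here do not give how many animals stand behind a library. A transcript made in a single organ is diluted by the other organs in such a pool.

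Retinoids are vitamin A and its derivatives. Retinol circulates in blood on a plasma carrier, is held in cells by small cytosolic binding proteins, and is oxidised to retinaldehyde, the light-sensitive group of opsins, or further to retinoic acid, the ligand of nuclear receptors. In the eye a visual cycle regenerates retinaldehyde: photoreceptors pass spent retinoid to the retinal pigment epithelium, which isomerises it and returns it. The mammalian pineal gland shares many transcripts with retinal photoreceptors but has no pigment epithelium beside it.

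The deposited values are in FPKM, which divides fragments by transcript length and by the mapped total of the library, so levels can be compared between genes within a library. With 1 library per group there is no replicate check, no p-value and no estimate of the spread between animals. Ratios are log2 ratios of FPKM + 1, given for genes at 1 FPKM or more in either library of a pair, and this scale understates the ratios of genes with low values. With the day library at 100%, estimated depth was 60.5% by night and 108% in the mixed tissues. The night estimate rests on 4 gene models, so the night floor and the night bounds below are uncertain. For a transcript of 1 kb, 3 fragments correspond to 0.343 FPKM by day, 0.567 by night and 0.316 in the mixed tissues. Values under these floors were read as not distinguishable from 0 at this depth for a transcript of that length. Intervals below are exact 95% Poisson bounds for a transcript of 1 kb and cover counting error only. Longer transcripts have lower floors and narrower bounds, and shorter ones higher floors and wider bounds. In whole tissue, fewer cells that make a transcript and less of it per cell cannot be told apart.

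The labels matched their defining transcripts. Tph1, Asmt and Crx, which mark pinealocytes, were at 4665, 395 and 237 FPKM in the day gland, and their values in the mixed tissues were 0.309, 1.45 and 31.5. Aanat, whose product makes the melatonin precursor at night, stood at 5.34 FPKM by day and 762 by night. Alb, Gh1 and Fabp2, of liver, pituitary and intestine, were at 2030.4, 5891 and 169 FPKM in the mixed tissues and listed at 0 in both pineal libraries.

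In the pineal gland, Rbp3 dominated the set. It made up 84.3% of the summed FPKM of the 9 genes by day and 87.6% by night, against 9.51% in the mixed tissues. The order by day was Rbp3, Aldh1a1, Rbp4, Rlbp1, Aldh1a2, Crabp2, Abca4, Crabp1 and Rbp2. By night Rlbp1 stood above Rbp4 and Crabp2 above Aldh1a2, and the other places were as by day. In the mixed tissues the order was Rbp4, Rbp2, Aldh1a1, Rbp3, Rlbp1, Abca4, Aldh1a2, Crabp1 and Crabp2. Abca4, Crabp1 and Rbp2, the lowest by day, were under 1 FPKM in both pineal libraries, while all 9 genes exceeded 1 FPKM in the mixed tissues.

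**Figure D1:**
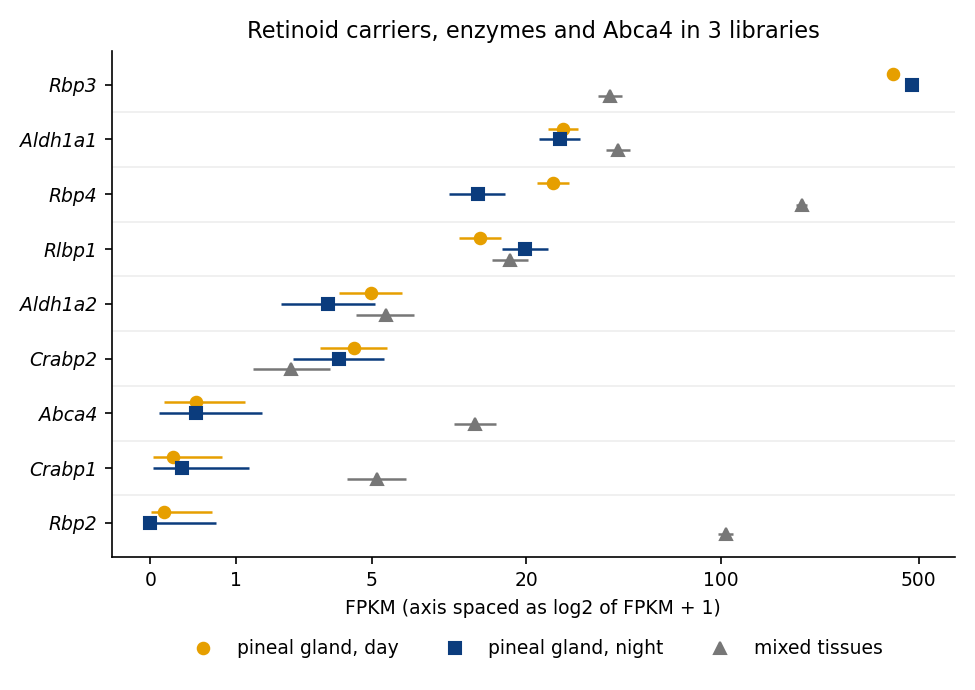
FPKM of the 9 genes in the day pineal (circles), night pineal (squares) and mixed-tissue (triangles) libraries, on an axis spaced as log2 of FPKM + 1; lines are 95% Poisson bounds for a transcript of 1 kb. Rbp3 lies at 406 and 473 FPKM in the gland against 40.4 in the pool, whereas Rbp2, Crabp1 and Abca4 lie under 1 FPKM in the gland.

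Rbp3 encodes the interphotoreceptor retinoid-binding protein, a large secreted carrier that carries retinoids through the matrix between photoreceptors and the pigment epithelium (NCBI gene 24711; chr16:9578549-9587017, rn4). It was at 406 FPKM by day (393 to 420), 473 by night (454 to 492) and 40.4 in the mixed tissues (36.4 to 44.6). Both pineal values were far above the pooled one, and Rbp3 was the 38th most abundant entry of the day gland, the 27th of the night gland and the 1099th of the pool. In FPKM the gland exceeded the mixed tissues 10.1-fold by day and 11.7-fold by night, with log2 ratios of 3.30 and 3.52. The night to day log2 ratio was 0.22, within 2-fold, although the counting bounds did not overlap. Crx, a homeobox factor of photoreceptors and pinealocytes, was at 237, 421 and 31.5 FPKM, which put Rbp3 at 1.72, 1.12 and 1.28 times Crx in the same libraries. Of 7 rod markers 6 were found, with sums of 461, 327 and 654 FPKM, and Rom1, an outer segment protein of rods and cones, made up 442, 313 and 108 of these. Gnat1, the rod transducin, was at 1.59 and 0.888 FPKM in the gland and at 355 in the pool.

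Abca4 encodes a transporter of photoreceptor outer segments that clears retinaldehyde bound to lipid (gene 310836; chr2:218712663-218849896). It stood at 0.443 FPKM by day (0.117 to 1.15), 0.450 by night (0.0701 to 1.48) and 12.9 in the mixed tissues (10.7 to 15.4). Abca4 was thus low in both pineal libraries and clearly present in the pool, with log2 ratios of -3.26 against it at both times. Its night value was under the floor of 0.567 FPKM for a transcript of 1 kb. A longer transcript has a lower floor, and the sources used here do not give the transcript length of Abca4. Whether the night value differs from 0 was therefore not settled. Abca4 did not follow Rbp3: it amounted to 0.109% of Rbp3 in the day gland and 31.9% in the mixed tissues. In the night gland it was listed at 0.0952%, from the value under the floor for 1 kb.

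The upstream DNA of these genes is shown because Rbp3 and Abca4, both of photoreceptors, differ in level in the gland. Each holds a letter match to the site of the photoreceptor homeodomain factors. RefSeq start-site windows (build GRCr8, not the rn4 of the tables) were found for 9 of 9 genes, and the 250 bases before each start were searched on both strands for TAATCC, which Crx and Otx2 bind. Rbp3 and Abca4 held 1 match each and the other 7 genes none, where 6.34% of 33469 windows of this length held one. Rbp2, an intestinal gene described below, held 1 match to the nuclear receptor core site AGGTCA, present in 14.1% of windows. Neither TGACGTCA, the cAMP response element (1.59% of windows), nor the E-box CACGTG (5.59%) was found before any of the 9 starts. Stretches of 80 bases around these matches follow, 5′ to 3′ on the plus strand, which is the gene's strand for all of them. Capitals mark the match, which lies on the opposite strand in each and so reads GGATTA or TGACCT.
Rbp3, chr16:9273647-9273726: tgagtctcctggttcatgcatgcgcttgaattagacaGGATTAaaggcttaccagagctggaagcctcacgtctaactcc
Abca4, chr2:212849390-212849469: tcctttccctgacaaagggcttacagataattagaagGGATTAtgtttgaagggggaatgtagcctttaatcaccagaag
Rbp2, chr8:107963429-107963508: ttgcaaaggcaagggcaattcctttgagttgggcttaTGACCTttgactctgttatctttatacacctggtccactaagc
The match ran from 103 to 98 bases before the start of Rbp3, from 58 to 53 before that of Abca4 and from 76 to 71 before that of Rbp2. A match describes the letters and is no measurement of binding. The homeodomain letters were present before both the gene at 406 FPKM in the day gland and the one at 0.443. Their part in either level was not tested.

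Rlbp1 encodes the cellular retinaldehyde-binding protein of the pigment epithelium and Müller glia (gene 293049; chr1:135122063-135135420). Its level was 13.5 FPKM by day (11.2 to 16.1), 19.8 by night (16.2 to 24.0) and 17.4 in the mixed tissues (14.8 to 20.2). The pooled value lay between both pineal values. The night to day log2 ratio of 0.52 was the highest among the 6 members compared between night and day and lay above that of 90.6% of all genes compared. Of the glial markers 4 could be compared between night and day, all 4 had a log2 ratio below 0, as 61.8% of all genes compared did, and 0 were at least 2-fold lower; with the highest entry of each symbol in place of the sum, 3 were below 0 and 1 above. Gfap was at 10.2 FPKM by day and 5.16 by night, Aqp4, summed over 2 entries of opposite direction, at 9.13 and 4.52, Slc1a3 at 4.85 and 4.15, Kcnj10, under the floor by night, at 0.543 and 0.268, and Vim at 80.5 and 72.9. For the 5 markers of Müller glia and astrocytes found, of 7 listed, the summed FPKM was 105 by day, 86.9 by night and 423 in the mixed tissues. Their part in the Rlbp1 value was not tested.

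Transcripts that define the pigment epithelium were close to 0 in the gland. Of 7 such markers 6 were found, and all 6 were under 1 FPKM in both pineal libraries, with sums of 0.427 by day, 0.377 by night and 6.82 in the mixed tissues. Rpe65, the isomerase of the visual cycle, was listed at 0 in both glands and at 1.52 FPKM in the pool. Lrat, which esterifies retinol for storage and for Rpe65, was at 0.0388, 0.0317 and 1.81 FPKM, and the opsin-like genes Rgr and Rrh were under 1 FPKM in the gland as well. Rlbp1 was therefore measured in the gland at the level of the pool while its pigment epithelium partners were not detectable at this depth. Among dehydrogenases that reduce or oxidise retinaldehyde in photoreceptors, Rdh11 was at 48.3, 40.9 and 27.3 FPKM, Rdh8 at 3.10, 2.17 and 4.24, and Rdh12 at 1.80, 1.23 and 4.48.

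**Figure D2:**
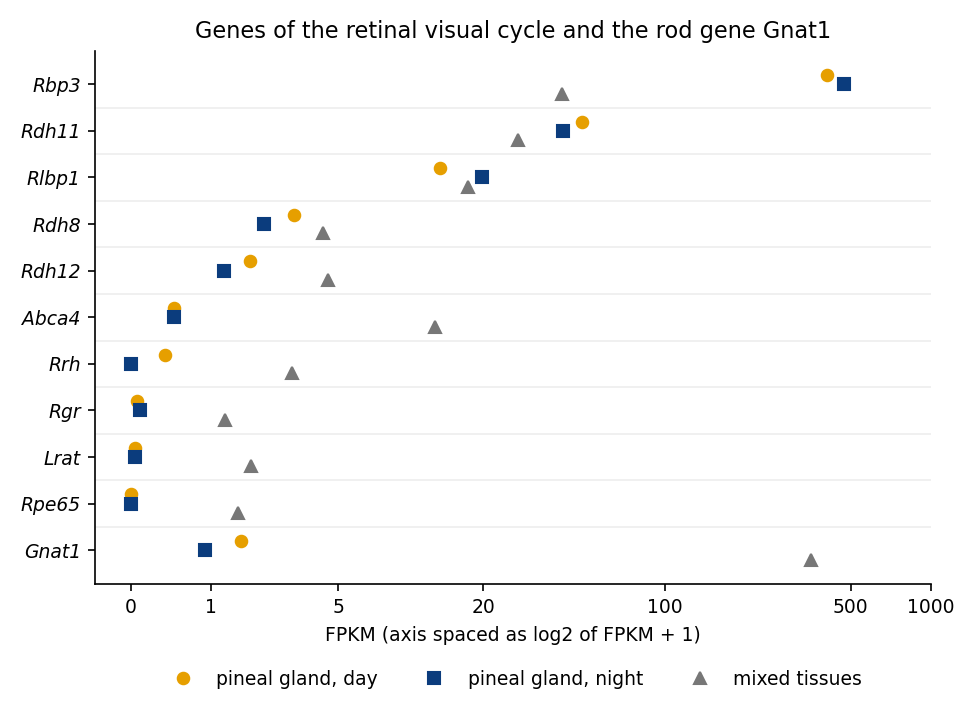
FPKM of visual cycle genes and of the rod gene Gnat1 in the 3 libraries, on an axis spaced as log2 of FPKM + 1. Rbp3, Rdh11 and Rlbp1 lie above 10 FPKM in the gland, while Rpe65, Lrat, Rgr, Rrh and Abca4 lie under 1 FPKM there and between 1 and 13 in the mixed tissues.

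Rbp4 encodes the plasma retinol-binding protein, secreted mainly by the liver and carried with transthyretin (gene 25703; chr1:242443795-242450997). It was at 25.1 FPKM by day (21.9 to 28.6), 13.2 by night (10.2 to 16.6) and 193 in the mixed tissues (185 to 202). Rbp4 was the highest of the 9 in the pool and the third in the day gland, and its day and night bounds did not overlap. The night value was lower by a log2 ratio of -0.88, the lowest of the set and below all but 3.37% of genes compared, yet short of 2-fold. Against the pool the log2 ratio was -2.90 by day and -3.78 by night. Of 5 liver markers 4 were found, with sums of 522, 609 and 3129 FPKM, nearly all of it Ttr in the gland. Alb and Fgb, which define hepatocytes, were listed at 0 in both pineal libraries. Of the liver markers 2 could be compared between night and day, 1 with a log2 ratio below 0 and 1 above. Serpina1, the antitrypsin gene, was the lower one, at 6.41 FPKM by day, 2.52 by night and 295 in the pool. Its part in the Rbp4 value was not tested. Ttr, the partner of Rbp4 in plasma, which choroid plexus also makes, was at 516, 607 and 685 FPKM, within 2-fold in each comparison. Its night to day log2 ratio was 0.23, opposite in sign to those of Serpina1 and Rbp4. Pde6c, the cone phosphodiesterase gene 8656 bp from the span of Rbp4, was at 156, 229 and 1.10 FPKM, an order unlike that of Rbp4.

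Rbp2 encodes the cellular retinol-binding protein of the absorptive cells of the small intestine (gene 24710; chr8:103665461-103685770). It was at 0.120 FPKM by day, listed at 0 by night and at 104 in the mixed tissues (97.8 to 111). Both pineal values were under the floor of 3 fragments, and the log2 ratio by day was -6.55, the furthest from 0 in the set. For a transcript of 1 kb the upper bounds were 0.647 FPKM by day and 0.697 by night. Markers of the same intestinal cells, Fabp2, Vil1, Apoa4, Apob and Si, summed to 0.532 FPKM by day, 0.274 by night and 375 in the pool. An exact 0 in these tables can also be a failed estimate, since Cldn5 was listed at 0 in all 3 libraries and Gapdh, which every cell uses, at 0.139, 0.404 and 0.0707 FPKM.

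The retinoic acid-binding proteins differed in where they stood. Crabp1, which holds retinoic acid in the cytosol (gene 25061; chr8:58317337-58325375), was at 0.205 FPKM by day (0.0207 to 0.788), 0.293 by night (0.0226 to 1.23) and 5.27 in the mixed tissues (3.91 to 6.94). Both pineal values were under the floor, and the log2 ratios against the pool were -2.38 and -2.28. Crabp2, which delivers retinoic acid to its nuclear receptors (gene 29563; chr2:180029801-180034147), was at 4.20 FPKM by day (2.96 to 5.80), 3.61 by night (2.17 to 5.63) and 2.13 in the pool (1.30 to 3.28). Crabp2 was the gene besides Rbp3 with a higher value in the gland than in the pool at both times, with log2 ratios of 0.73 and 0.56, within 4-fold. Its day and night bounds overlapped almost fully, and those of the pool overlapped both.

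Both enzymes lay within 2-fold between night and day. Aldh1a1, which oxidises retinaldehyde to retinoic acid (gene 24188; chr1:223731675-223773285), was at 27.3 FPKM by day (23.9 to 31.0), 26.5 by night (22.3 to 31.3) and 43.1 in the mixed tissues (39.0 to 47.5). It was the second highest of the set in the gland, and the night to day log2 ratio was -0.04, or 0.07 with the libraries centred on the median ratio. Aldh1a7, a close copy of it on the same chromosome, was listed at 1.49, 0.815 and 3.53 FPKM, and the sources used here do not say how reads common to both were divided. Aldh1a2, the retinaldehyde dehydrogenase of meninges and embryonic mesoderm (gene 116676; chr8:75692099-75771159), was at 4.98 FPKM by day (3.61 to 6.69), 3.22 by night (1.88 to 5.16) and 5.72 in the pool (4.30 to 7.46). Its 3 intervals overlapped, and the log2 ratios were -0.50 for night against day, -0.17 for the day gland against the pool and -0.67 for the night gland. The day ratio to the pool was above 0, up to 0.10, with the libraries centred or rescaled without their 20 highest genes.

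Of the 6 members compared, 4 had lower values by night: Rbp4, Aldh1a2, Crabp2 and Aldh1a1. That is near the share of all genes compared with a log2 ratio below 0, 61.8%. The day and night bounds of Aldh1a2, Crabp2 and Aldh1a1 overlapped. The log2 ratio of Crabp2, -0.18, was near the median of all genes, -0.11. Fibroblast and meningeal markers mostly had lower values by night as well. All 8 were found, 7 had a lower value by night, 1 of them at least 2-fold, where 61.8% of all genes compared had a log2 ratio below 0 and 2.11% were at least 2-fold lower. Their sum was 297 FPKM by day, 212 by night and 405 in the mixed tissues, with a median night to day log2 ratio of -0.39 beside -0.11 for all genes. Markers of mural cells were below 0 in 3 of 3 genes (median -0.29), of endothelium in 2 of 3 (median -0.32) and of microglia in 3 of 5 (median -0.30), with 0 of them at least 2-fold lower. Col1a1 was at 52.8 and 36.2 FPKM, Col3a1 at 64.7 and 43.3, and the meningeal transporter gene Slc6a13 at 18.5 and 4.74. Pdgfra, the fibroblast marker that was not lower by night, was at 13.6 and 14.0. The part of these cell types in the values of Rbp4, Aldh1a2, Crabp2 and Aldh1a1 was not tested.

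For night against day, 6 of the 9 genes could be compared and 0 were at least 2-fold higher or lower, where 6.29% of 9826 genes and regions were (4.18% higher, 2.11% lower). The 6 log2 ratios ran from -0.88 for Rbp4 to 0.52 for Rlbp1, with 2 above 0 and 4 below. Their median was -0.11, the same as the median of all genes compared, -0.11, and it turned to 0.09 with a filter at FPKM 5 and to 0.0013 with the libraries centred. Abca4, Crabp1 and Rbp2 were under 1 FPKM at both times and were left out.

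Against the mixed tissues all 9 could be compared, and they spread to both ends of the scale. By day 1 was at least 4-fold higher, Rbp3, and 4 at least 4-fold lower, Rbp2, Abca4, Rbp4 and Crabp1, while Rlbp1, Crabp2, Aldh1a1 and Aldh1a2 lay within 4-fold. Among 11934 genes and regions compared, 15.5% were past 4-fold, 2.29% higher and 13.2% lower. By night the same 5 genes were past 4-fold in the same direction, against 17.5% of 11951 genes and regions, 3.09% higher and 14.4% lower. Both comparisons use the same mixed-tissue library, so they are not independent. The median log2 ratio of the 9 was -0.64 by day and -0.68 by night, beside -0.27 and -0.36 for all genes. With a filter at FPKM 5 the members' medians were -1.51 and -1.48, and with the libraries centred -0.37 and -0.32. With a pseudocount of 5 in place of 1, the genes at least 4-fold lower numbered 2, Rbp2 and Rbp4.

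**Figure D3:**
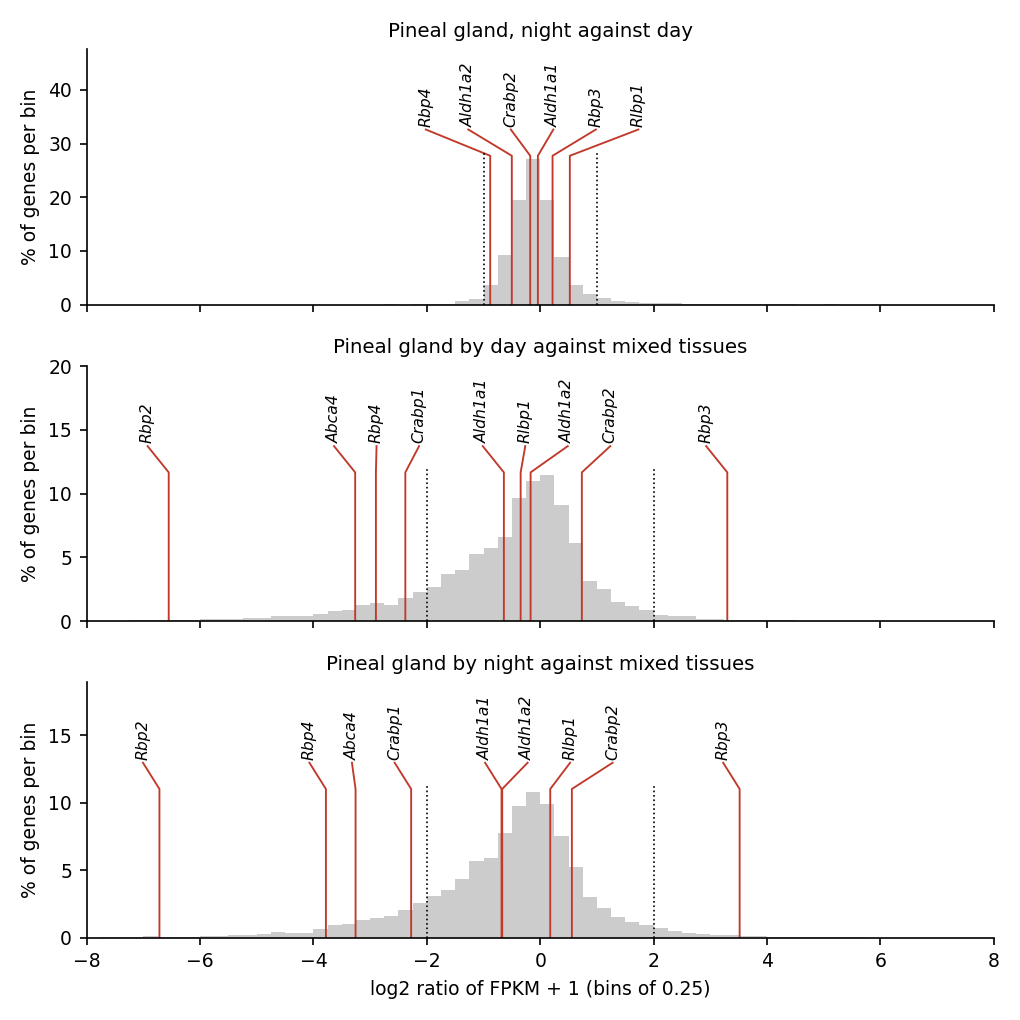
Log2 ratios of FPKM + 1 of the genes (red lines) over the percentage of all compared genes per bin of 0.25 (grey) in the 3 comparisons; dotted lines mark 2-fold in the top panel and 4-fold in the others. For night against day all 6 genes lie inside the dotted lines, and against the mixed tissues Rbp3 lies to the right of them and Rbp2, Abca4, Rbp4 and Crabp1 to the left.

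The genes with the most similar pattern were found for the members at 20 FPKM or more in a pineal library, by the Euclidean distance of mean-centred log2(FPKM + 1) over the 3 libraries among 8956 genes. The nearest to Rbp3 were F5, the coagulation factor V gene (34.2, 37.1 and 2.58 FPKM by day, by night and in the pool, distance 0.0853), Klc3, a kinesin light chain (57.5, 63.4 and 5.35, distance 0.125), and Sema3a, an axon guidance factor (26.6, 31.8 and 2.21, distance 0.150). For Rbp4 they were S1pr1, a sphingosine phosphate receptor (3.85, 2.00 and 35.0), Igf1 (4.94, 2.74 and 43.8) and S100a6 (16.2, 8.95 and 115), at distances of 0.158 to 0.171. Aldh1a1 had a common pattern, with 784 genes within a distance of 0.25 against 9 for Rbp3 and 15 for Rbp4. With 3 libraries, such likeness is a description only.

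Another 46 genes of retinoid uptake, storage, oxidation, clearance and reception served as a wider list, of which 42 were found. For night against day 23 could be compared, 0 were at least 2-fold higher and 2 lower. Their median log2 ratio was -0.24, and 17 of 23 lay below 0, where 61.8% of all genes compared did. The 2 were Dhrs3, which reduces retinaldehyde back to retinol (20.7 FPKM by day and 7.52 by night, log2 ratio -1.35), and Rara, the retinoic acid receptor alpha (6.49 and 2.41, log2 ratio -1.13). Of the dehydrogenases compared, 8 of 9 had a lower value by night, and so did all 5 receptors, or 4 of 5 with the libraries centred on the median ratio. Within 2-fold lay 6 of the 6 members compared and 21 of 23 of the list, against 93.7% of all genes compared.

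Against the pool by day, 38 of the wider list could be compared, 6 were at least 4-fold lower and 1 at least 4-fold higher, together 18.4% of the list, near the 15.5% of all genes and regions. The median log2 ratio of the 38 was -0.92, and it was -0.17 with a filter at FPKM 5, as for all genes there (-0.17), and -0.37 with a pseudocount of 5. The higher one was Rxrg, a retinoid X receptor of cones (109 FPKM by day, 58.9 by night and 5.81 in the pool, log2 ratio 4.01 by day), which stood beside Rbp3 at the pineal end. The 6 lower ones were Adh1, an alcohol dehydrogenase (0.102 FPKM by day and 42.8 in the pool), Rdh7 (0.157 and 23.3), Dhrs7 (0.0569 and 11.8), Aldh8a1, a retinaldehyde dehydrogenase (0.109 and 13.5), Cyp26b1, which degrades retinoic acid (0.983 and 7.14), and Bco1, listed as Bcmo1, which cleaves carotene into retinaldehyde (0.0409 and 3.29). By night the count was 1 higher and 7 lower, Rrh being added just past the threshold. Together these were 21.1% of the list compared, near the 17.5% of all genes and regions (3.09% higher, 14.4% lower). By level, the day gland was led in this list by Ttr (516 FPKM), Lpl, a lipase that frees retinol from circulating esters (130.4), Rxrg (109), Scarb1, a receptor for lipoproteins and carotenoids (51.3), and Rdh11 (48.3). Rbp3 exceeded all of these but Ttr. The counts of lower genes depended on the pseudocount and the scaling: with a pseudocount of 0.1 they were 14 by day and 15 by night, and with 5 they were 2 and 2. Cyp26b1 and Bcmo1, both at a log2 ratio of -2.04 by day, came within 4-fold with the libraries centred (-1.76 and -1.77), rescaled to the upper quartile (-1.95 and -1.98) or rescaled without the 20 highest genes of each (-1.88 and -1.94), which left 4 lower by day in each case.

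**Figure D4:**
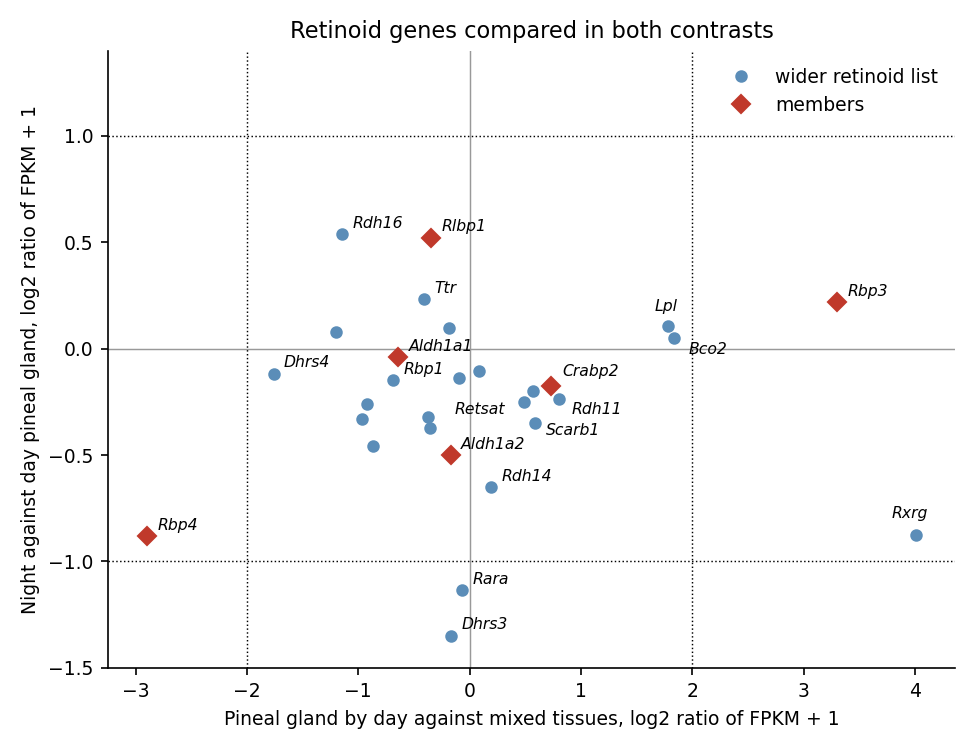
Night to day log2 ratio of FPKM + 1 in the pineal gland (vertical axis) against the log2 ratio of the day gland to the mixed tissues (horizontal axis) for the members (diamonds) and the wider retinoid list (circles) compared in both; dotted lines mark 2-fold and 4-fold. Rbp3 and Rxrg lie at the right, at 3.30 and 4.01, Rbp4 at the left, at -2.90, and Rara and Dhrs3 fall below the 2-fold line.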

How the data were processed

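The authors deposited FPKM values, the unit named in the file headers, for 3 libraries, 1 per group. Per the labels' protocols, poly(A) RNA from 10 µg of total RNA was fragmented, primed with random primers, amplified by 15 cycles of PCR and sequenced as paired-end reads of 51 bases, 1 lane per library. TopHat 1.3.1, Cufflinks 1.2.0 and build rn4 are named, per the submitters' processing notes. The sources used here do not give options, strand handling or the treatment of reads with several positions. FPKM is scaled to each library's total, so abundant transcripts lower the rest.

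Of 17089 entries, those of one symbol were summed, which left 16629 genes and regions. The series table and the sample files agreed in 51267 of 51267 values. Members were matched by symbol alone, since Rimbp2 carries Rbp2 as an alias. Table starts count from 0 (1191 of 1197 olfactory receptor spans are then multiples of 3) and are printed counted from 1. Depth came from 1192 receptor models with spans of 800 to 1100 bp, whose smallest values above 0, times length, give 1 fragment: 8.75 fragments per kb at 1 FPKM by day (20 models), 5.29 by night (4 models, so uncertain) and 9.49 in the mixed tissues (17 models). Log2 ratios of FPKM + 1 used a filter at FPKM 1, with 2-fold (night against day) and 4-fold (against mixed tissues) as thresholds. The calls were tested on simulated data that held planted 4-fold changes and counting noise. That test does not cover changes near 2-fold or the spread between animals. Python 3.11.15, pandas 2.3.3, numpy 2.4.6 and scipy 1.17.1 were used.

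Named genes were all members, list genes past a threshold, the 5 highest of the wider list by day, the 3 of most similar pattern per member (symbols turned into dates left out), label checks and cell type markers. Visual cycle genes (Rdh8, Rdh12, Rpe65, Lrat, Rgr) and neighbours or copies (Pde6c, Aldh1a7) were named beyond this rule, and 1 rod marker was left out of the lists. Members and lists were chosen with earlier results of these data known. No list is independent support.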

Additional observations from a re-analysis of the deposited data

Results flagged for a closer look

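Rlbp1 was lower in the day gland than in the mixed tissues (log2 ratio -0.35) and higher in the night gland than in them (0.18), the opposite sign in the same contrast at 2 times of day. The difference was not tested, since each group had 1 library, and the mixed tissues were taken at ZT 7 only. The counting bounds of the pool (14.8 to 20.2) overlapped those of the day gland (11.2 to 16.1) and of the night gland (16.2 to 24.0). Neither sign was therefore clear of counting error. Both signs were the same under all 9 alternatives, with ranges of -0.37 to -0.07 by day and 0.15 to 0.54 by night. The filters, the highest row and RefSeq genes alone cannot change the ratio of a gene with 1 entry at this level. The other alternatives rework the same libraries, so the kept signs are no support for a difference.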

How the results depend on the processing

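The 9 alternatives were a pseudocount of 0.1 or 5, a filter at FPKM 5 or none, libraries centred on the median ratio, rescaled to the upper quartile or rescaled without the 20 highest genes of each, the highest row of a symbol in place of the sum, and RefSeq genes alone. No member passed 2-fold for night against day under any of them, and Rbp3 stayed past 4-fold on the higher side of the mixed-tissue comparison, at log2 3.18 to 3.57 by day and 3.40 to 3.88 by night. With a pseudocount of 5 the members at least 4-fold lower were 2 by day and 2 by night, since Abca4 (-1.71 at both times) and Crabp1 (-0.98 and -0.96) came within 4-fold; Crabp1 by night also did with centring (-1.92). In the wider list, genes at least 4-fold higher than the mixed tissues numbered 2 by day and 2 by night with a pseudocount of 0.1, 3 and 3 with centring, 2 by night with the upper quartile, and 2 and 3 without the 20 highest genes. Those at least 4-fold lower numbered 14 and 15 with 0.1, 2 and 2 with 5, 4 and 4 with centring, 4 and 5 with the upper quartile, 4 and 5 without the 20 highest genes, and 5 and 5 with a filter at FPKM 5, against 6 and 7 as reported. The median of the wider list against the mixed tissues by night, -1.15, was -0.61 with that filter and -0.40 with a pseudocount of 5. Night against day, 1 was at least 2-fold lower with a pseudocount of 5. Over all genes, a pseudocount of 0.1 gave 533 higher and 518 lower by night and 5 gave 231 and 64, while centring gave 481 and 153; against the mixed tissues 0.1 gave 424 higher and 2611 lower by day and 492 and 2831 by night, 5 gave 156 and 522 by day and 207 and 553 by night, and centring gave 385 and 1283 by day and 548 and 1286 by night. As reported these were 273 and 1581 by day and 369 and 1725 by night. Centring sets to 0 the median log2 ratio of all genes, which was -0.11 for night against day and -0.27 and -0.36 for the day and night gland against the mixed tissues. No paired analysis was possible because each group had 1 library, and none could be left out. Depth, lowest by night, limits Rbp2 and Crabp1 in the gland, and Abca4 less if its transcript is much longer than 1 kb.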
